A study of Mus musculus with 4 samples.

Results

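The 39 genes described here encode the enzymes and regulators that keep the redox balance of the cell, namely the oxidant-sensing pair Nfe2l2 and Keap1, NRF2 target enzymes, glutathione and thioredoxin enzymes, peroxidases, metallothioneins, ferritins, glutathione transferases and the NADPH-producing enzymes of the pentose phosphate pathway. They were picked by gene symbol, with no measured value in the rule, and all 39 were found among the 49997 genes of the count table. The RNA came from E14 cells, a line of mouse embryonic stem cells (ESCs), carrying a lentiviral short hairpin RNA, either a scrambled sequence (shScramble, 2 libraries) or a sequence against Ythdf2 (shYthdf2, 2 libraries), both kept as stable lines under puromycin. YTHDF2 is a cytoplasmic reader of N6-methyladenosine that promotes decay of the mRNAs it binds. Both groups grew without feeders on gelatin in serum replacement medium with 1000 U/ml of leukemia inhibitory factor, and this shared medium held 0.1 mM β-mercaptoethanol, a thiol reductant. According to the study's text its knockdown ESCs carried a tdTomato reporter driven by the MERVL promoter. The labels do not say which of the hairpins against Ythdf2 these lines carry or whether the replicates come from separate infections.

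Cells remove peroxides along a pair of thiol routes. Glutathione is built from cysteine by glutamate-cysteine ligase and glutathione synthetase and feeds the glutathione peroxidases, while thioredoxins feed the peroxiredoxins, and both carriers are reduced again with electrons from NADPH, much of it made by the pentose phosphate pathway. KEAP1 holds the transcription factor NRF2 (encoded by Nfe2l2) at a low level until oxidants or electrophiles modify it, after which NRF2 with a small MAF partner binds antioxidant response elements (AREs) beside many of these genes. Metallothioneins bind zinc and copper through clustered cysteines and are switched on by the zinc-sensing factor MTF1 at metal response elements (MREs).

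Upon Ythdf2 knockdown, 4 of the 39 genes rose and 2 fell. The metallothioneins Mt1 and Mt2 rose most, to 3.07 and 3.53 times the control level. The secreted glutathione peroxidase Gpx3 rose 2.13-fold and the cytosolic peroxiredoxin Prdx2 rose 1.45-fold. Txnip, which encodes the inhibitor of thioredoxin, fell to 49.3% of the control level, and Gclc, which encodes the catalytic subunit of glutamate-cysteine ligase, fell to 68.9%. The other 33 genes did not pass the threshold, an adjusted p under 0.05 in edgeR's quasi-likelihood test with Benjamini-Hochberg adjustment over the 18341 genes tested. At that threshold 2.43% of all genes tested were higher and 1.49% were lower in shYthdf2. At an unadjusted p under 0.05, 15 of the 39 genes were higher and 4 were lower, where 11% and 9.8% of all genes were. Both shYthdf2 libraries lay above both shScramble libraries for 17 of the 39 genes and below them for 7, where 26.2% and 25.5% of all genes did. The median log2 fold change of the 39 genes was 0.07, and that of all genes tested was 0.0019. By the criteria of the study's methods, an unadjusted p of at most 0.05 in DESeq2 with a log2 fold change of at least 1 in size, Mt1, Mt2 and Gpx3 were higher and Txnip was lower. At these criteria 1.63% of 30565 genes with a read were higher and 1.25% were lower.

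**Figure D1:**
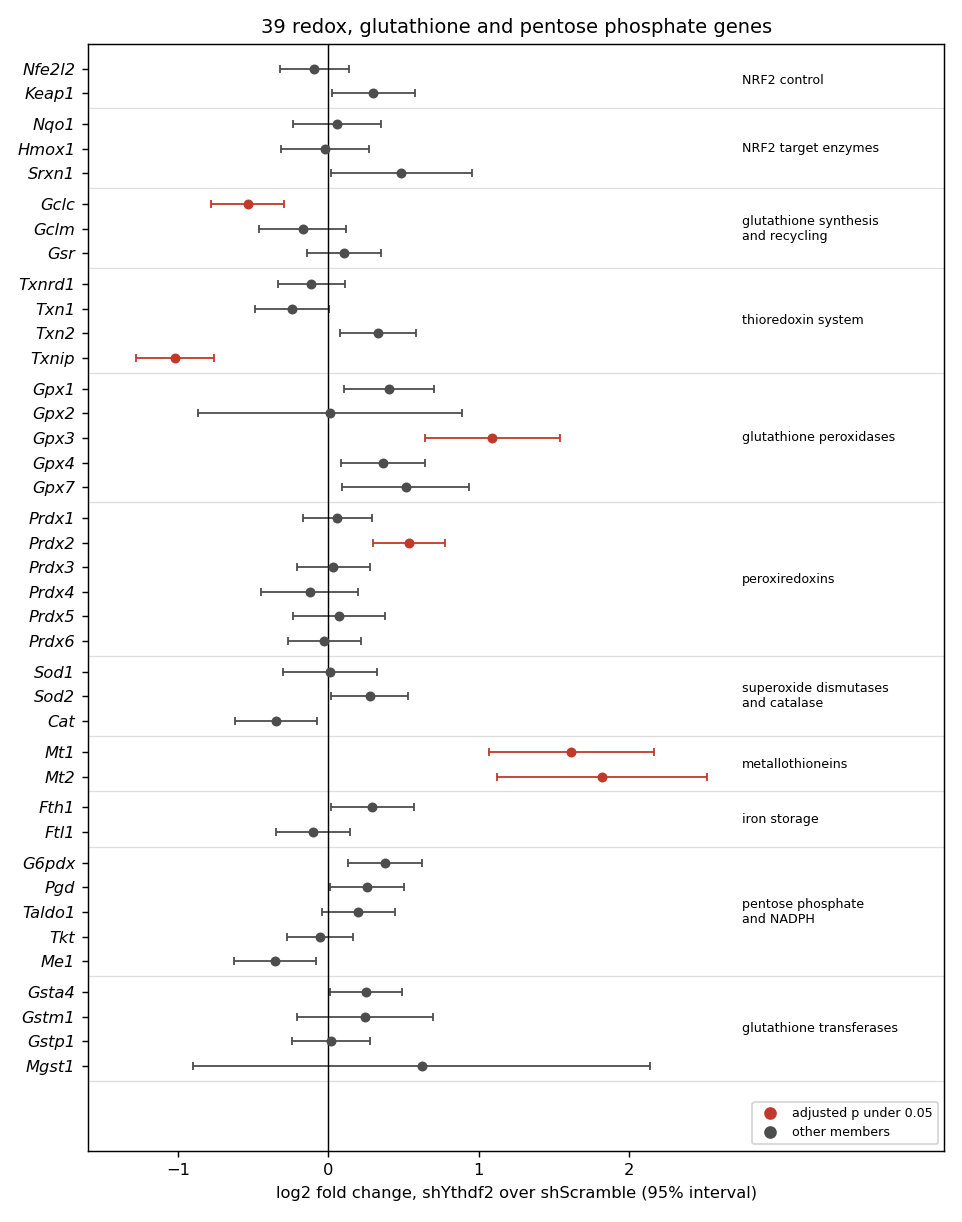
Log2 fold change of each of the 39 genes in shYthdf2 over shScramble (horizontal axis), with its 95% interval from the edgeR fit on 2 libraries per group, grouped by role. Red points passed an adjusted p under 0.05, namely Mt1, Mt2, Gpx3 and Prdx2 on the higher side and Txnip and Gclc on the lower side. The other points run from -0.36 for Me1 to 0.62 for Mgst1.

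The targeted gene Ythdf2 had 3365 and 2760 reads in shScramble against 1086 and 1082 reads in shYthdf2, a log2 fold change of -1.55 (edgeR, SE 0.11, adjusted p = 0.00069). The libraries held 31113006 to 36422510 counted reads, of which the 39 genes took 0.581% and 0.595% in shScramble and 0.652% and 0.587% in shYthdf2, each pair in the order replicate 1, replicate 2, which is kept for all values below. All 10 markers of ESCs were detected in every library, with a summed level of 7416 and 7288 CPM (the reads of a gene relative to the TMM-scaled total of its library) in shScramble and 6990 and 6516 CPM in shYthdf2. Markers of 2C-like cells, the small fraction of an ESC culture that resembles the 2-cell embryo, summed to 33.8 and 49.4 CPM in shScramble and 65.7 and 174 CPM in shYthdf2, with 0 of 10 genes at 0 in all libraries and Duxf3 at 0 in shScramble replicate 2. They moved with the knockdown, and their part in the results was not tested. Fibroblast markers summed to 17.3 and 18.0 CPM in shScramble and 9.54 and 15.8 CPM in shYthdf2 with 1 of 7 genes, Dcn, at 0 throughout, primitive endoderm markers to between 12.3 and 19.9 CPM, and trophoblast markers to between 102 and 132 CPM. The trophoblast sum rests mainly on Tfap2c. Of the 6 trophoblast markers tested, 4 (Eomes, Gata3, Krt8 and Krt18) were lower in both shYthdf2 libraries than in both controls. The other 2 were higher in both, where 25.5% of all genes tested were lower and 26.2% higher in this way. The median log2 fold change over the 6 markers was -0.54, and 0 of them passed the adjusted threshold. Of the ESC markers, Tdgf1 was called lower, with a log2 fold change of -0.47 (edgeR adjusted p = 0.041), where 1.49% of all genes were. For 4 of the 10 both shYthdf2 libraries lay below both controls and for 0 above, where 25.5% and 26.2% of all genes did. The part of these shifts in the results was not tested. In bulk RNA a change in the share of cells expressing a gene and a change in RNA per cell cannot be told apart.

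The shYthdf2 library of replicate 1 differed from the other libraries in a way that went with gene length. Among genes over 10 CPM, its median log2 difference from the shScramble mean was 0.18 for 1904 genes with under 2000 bases of exon, 0.03 for 5024 genes of 2000 to 6000 bases and -0.14 for 2609 longer genes. In shYthdf2 replicate 2 these medians were 0.01, -0.0038 and -0.01. The redox genes are short, with a median exon length of 1552 bases against 3912 bases for genes over 10 CPM, and 21 of them over 10 CPM lie in the shortest class, 16 in the middle one and 0 in the longest. Across the 39 genes themselves the median difference from the shScramble mean was 0.19 in replicate 1 and 0.04 in replicate 2. With the length trend of each library taken out, a setting chosen after these values were seen, the 6 genes named above kept their calls, Txn1 also passed as lower, and the median log2 fold change of the 39 genes was -0.03. In that setting the log2 fold changes of Gpx1, Gpx4, Txn2 and Fth1 were 0.29, 0.26, 0.23 and 0.19, against 0.41, 0.36, 0.33 and 0.29. Those of Gsta4 and Taldo1 were 0.14 and 0.09, against 0.25 and 0.20. For the longer Keap1 and Sod2 they were 0.31 and 0.27, against 0.30 and 0.27. The part of length in single small differences below was not tested beyond this setting.

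**Figure D2:**
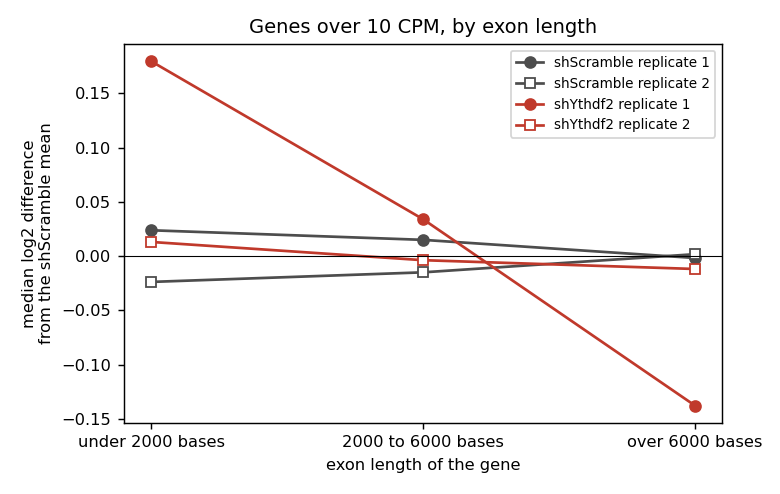
Median log2 difference of each library from the mean of the shScramble libraries (vertical axis) for genes over 10 CPM in 3 classes of exon length (horizontal axis). The line of shYthdf2 replicate 1 runs from 0.18 in the shortest class to -0.14 in the longest, while the other 3 libraries stay near 0.

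The regulators at the head of the NRF2 pathway showed no passing change. Nfe2l2 had 91.4 and 92.9 CPM in shScramble and 85.5 and 87.3 CPM in shYthdf2, a log2 fold change of -0.09 (edgeR, SE 0.10, adjusted p = 0.66). Keap1, the adaptor that hands NRF2 to a ubiquitin ligase, had 32.8 and 32.0 CPM in shScramble and 41.0 and 38.7 CPM in shYthdf2. Both knockdown libraries lay above both controls for Keap1, and the log2 fold change of 0.30 (edgeR, SE 0.12, adjusted p = 0.21) did not pass. Measured per exon length, Nfe2l2 stood at 24.1 ± 0.27 RPKM (CPM divided by the exon length in kilobases, SD, n = 2) in shScramble and Keap1 at 7.24 ± 0.12 RPKM.

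The classic NRF2 target enzymes did not move together. Hmox1, which encodes the inducible haem oxygenase and was the most abundant of the 3 per length at 40.7 ± 3.29 RPKM (SD, n = 2) in shScramble, read 67.8 and 60.5 CPM there and 69.5 and 57.0 CPM in shYthdf2. Nqo1, which encodes a quinone reductase, read 43.8 and 53.2 CPM in shScramble and 48.8 and 52.1 CPM in shYthdf2. For both genes the groups overlapped, with log2 fold changes of -0.02 (SE 0.13) and 0.06 (SE 0.13) and signs that turned when single libraries were left out. Srxn1, the sulfiredoxin that repairs overoxidised peroxiredoxins, read 18.7 and 24.1 CPM in shScramble and 23.8 and 36.0 CPM in shYthdf2. Its shYthdf2 replicate 1 lay inside the control range, and its log2 fold change of 0.49 (edgeR, SE 0.21, adjusted p = 0.23) was 0.16 without shYthdf2 replicate 2 and 0.75 without shYthdf2 replicate 1, where it passed (edgeR adjusted p = 0.0044).

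Promoters of the members were searched for the core of the ARE, TGACNNNGC, on both strands, in RefSeq windows (GRCm38.p6) from 250 bases before to 50 bases after each start. A window was given for 34 of the 39 genes, 44 windows in all, and not for Prdx6, Gclc, Gsr, Hmox1 and Gsta4. The core was present in 11 of the 44 windows, or 25%, and in 12.4% of all 32851 promoter windows. The following matches in well-known targets and in a pentose phosphate gene are shown, and none of these 4 genes passed the test. The Txnrd1 match lies in a promoter window (chr10:82858956-82859255) inside the gene, which begins at 82833951. Other Txnrd1 windows held no match. Each line gives 30 bases of the gene's own strand, with the match in capitals, which reads from the opposite strand in all 4.
Gclm, chr3:122245413-122245442 (+), 134 bases before the start: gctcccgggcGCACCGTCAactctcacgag
Prdx1, chr4:116685456-116685485 (+), 133 bases before the start: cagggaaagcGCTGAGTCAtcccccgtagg
Txnrd1, chr10:82859104-82859133 (+), 92 bases before the start: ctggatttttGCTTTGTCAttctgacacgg
G6pdx, chrX:74428918-74428947 (-), 57 bases before the start: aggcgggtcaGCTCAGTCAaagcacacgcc
The 11 genes with the core were G6pdx, Gclm, Me1, Mgst1, Mt2, Nfe2l2, Pgd, Prdx1, Sod1, Srxn1 and Txnrd1, and of these Mt2 passed the test. A match is a description of the letters, not evidence of binding.

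Of the genes that make and recycle glutathione, the catalytic subunit fell and the others did not pass. Gclc (mm10, chr9:77754535-77794489, plus strand) had 3717 and 3123 reads in shScramble and 2474 and 2399 in shYthdf2, or 103 and 99.1 CPM against 72.4 and 67.0 CPM. The groups did not overlap, and the mean fell from 101 ± 2.89 to 69.7 ± 3.77 CPM (SD, n = 2), and the log2 fold change was -0.54 (edgeR, SE 0.11, adjusted p = 0.029). Without shScramble replicate 1 the adjusted p of Gclc was 0.0505 in edgeR, with a log2 fold change of -0.51. Gclm, the modifier subunit that raises the activity of GCLC, read 69.2 and 63.1 CPM in shScramble and 64.4 and 53.0 CPM in shYthdf2, with a log2 fold change of -0.17 (edgeR, SE 0.13, adjusted p = 0.50). Per exon length, the ratio of Gclc to Gclm was 0.898 and 0.947 in shScramble and 0.676 and 0.762 in shYthdf2, so the transcripts of the catalytic subunit were fewer relative to those of the modifier in both knockdown libraries. Gsr, the glutathione reductase and the most abundant of these 3 genes at 46.9 ± 1.64 RPKM (SD, n = 2) in shScramble, had a log2 fold change of 0.10 (SE 0.11) with overlapping groups.

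**Figure D3:**
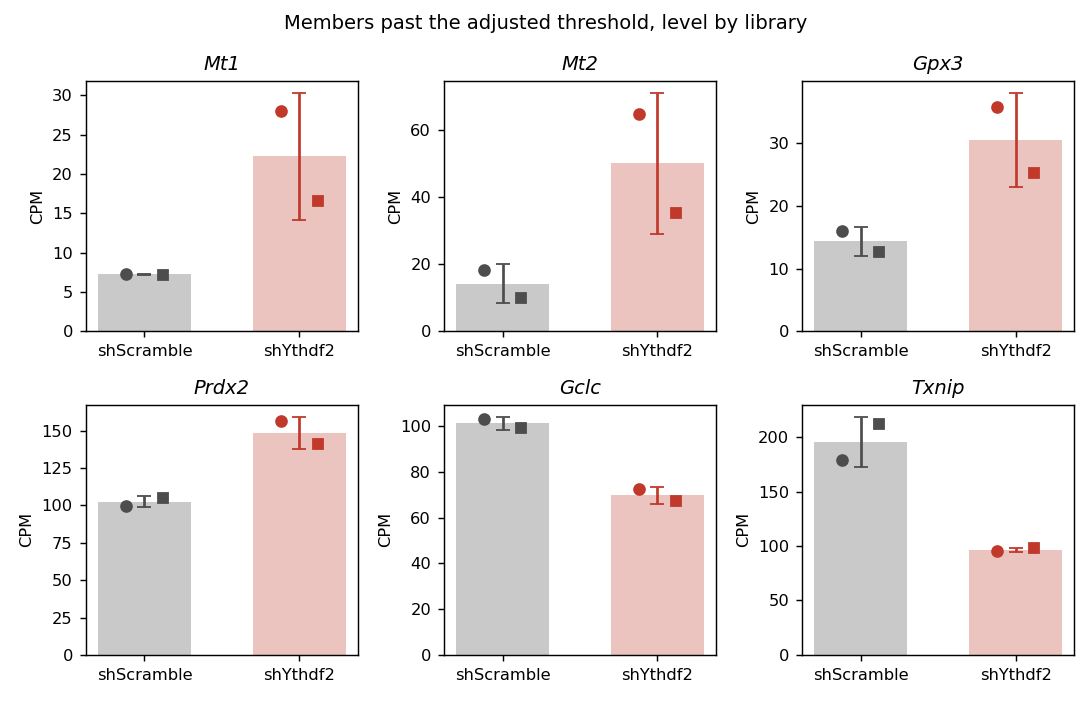
Level in CPM (vertical axes, starting at 0) of the 6 genes that passed the adjusted threshold, with points for the single libraries (circles, replicate 1, and squares, replicate 2), bars for the mean and error bars for the SD of 2 libraries per group. The groups do not overlap in any of the 6 panels, and in Mt1, Mt2 and Gpx3 the shYthdf2 libraries stand far from each other, as with 64.8 and 35.2 CPM for Mt2.

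Of the 5 glutathione peroxidases, Gpx3 rose and the other 4 did not pass the threshold. Gpx3 (chr11:54902854-54910387, plus strand) had 576 and 399 reads in shScramble and 1225 and 904 in shYthdf2, or 16.0 and 12.7 CPM against 35.8 and 25.3 CPM. The lower knockdown library still lay above the higher control library, and the log2 fold change was 1.09 (edgeR, SE 0.20, adjusted p = 0.021). It passed in each of the 14 other settings, with log2 fold changes from 0.82 to 1.32.

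Gpx1, the ubiquitous cytosolic enzyme, was the most abundant glutathione peroxidase at 409 ± 24.2 RPKM (SD, n = 2) in shScramble. It read 444.9 and 409 CPM in shScramble and 642 and 489.7 CPM in shYthdf2, a log2 fold change of 0.41 (edgeR, SE 0.13, adjusted p = 0.12). DESeq2 called Gpx1 higher (DESeq2 adjusted p = 0.043), and its log2 fold change was 0.20 without shYthdf2 replicate 1 and 0.59 without shYthdf2 replicate 2, where it passed in edgeR. Gpx4, which reduces lipid hydroperoxides in membranes and is the enzyme that holds back ferroptosis, read 191 and 234 CPM in shScramble and 290.3 and 255 CPM in shYthdf2, with a log2 fold change of 0.36 (edgeR, SE 0.13, adjusted p = 0.14) that was 0.22 without shScramble replicate 1. Gpx7, a peroxidase of the endoplasmic reticulum, read 8.64 and 9.90 CPM in shScramble and 12.8 and 13.7 CPM in shYthdf2, with a log2 fold change of 0.51 (edgeR, SE 0.19, adjusted p = 0.16). In all 3 the groups did not overlap. With Gpx3, both knockdown libraries lay above both controls for 4 of the 5 genes, where 26.2% of all genes tested did. In Gpx1 and Gpx4 the knockdown library of replicate 1 was the highest of the 4. Gpx2, best known from the gut epithelium, was low, with 4.66 and 2.98 CPM in shScramble and 5.29 and 2.43 CPM in shYthdf2, and the sign of its log2 fold change of 0.01 (SE 0.39) turned under 6 of 14 other settings.

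Summed over the 5 genes per length, the glutathione peroxidases came to 578 and 570 RPKM in shScramble and 850 and 672 RPKM in shYthdf2. Gpx1, which did not pass, made up most of the shScramble sums. The higher shYthdf2 sum is that of replicate 1, the library with the length shift. Except for Gpx7, these enzymes carry selenocysteine at the active site, an amino acid inserted at a UGA codon with the help of a dedicated translation machinery. Gpx4 shares 17.4% of the 150-base windows of its transcripts with the pseudogene Gpx4-ps2 and Gpx7 shares 23.6% of its exon bases with Gm32297 on the opposite strand, so part of the reads of both genes could not be assigned with certainty. Gm32297 itself had 20 to 46 reads per library.

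In the thioredoxin system the inhibitor fell. Txnip (chr3:96557957-96561857, plus strand) had 6462 and 6681 reads in shScramble and 3252 and 3501 in shYthdf2, or 179 and 212 CPM against 95.1 and 97.8 CPM. The knockdown libraries lay close together, far below either control, and the mean went from 196 ± 23.1 to 96.5 ± 1.91 CPM (SD, n = 2), and the log2 fold change was -1.02 (edgeR, SE 0.12, adjusted p = 0.0039). Txnip passed in each of the 14 other settings, with log2 fold changes between -1.13 and -0.90. TXNIP is an arrestin-like protein that binds reduced thioredoxin and limits glucose uptake, and its gene is known as one of the most glucose-responsive genes of the genome, through MondoA and ChREBP bound at paired E-boxes. The promoter window of Txnip was the only one of the 44 with a paired E-box, searched on both strands as CACGNG followed after 5 bases by CNCGNG, which 0.365% of all promoter windows hold. This match too describes letters and is not evidence of binding, and a part of such binding in the fall of Txnip was not tested. The match is printed in capitals, 85 bases before the start.
Txnip, chr3:96557866-96557895 (+): actgtgCACGAGGGCTGCACGAGcctccag
Of the 2801 exon bases of Txnip, 606 overlap Gm15441 on the opposite strand. The counting used no strand, and Gm15441 had 32 and 6 reads in shScramble and 24 and 45 in shYthdf2, few beside those of Txnip.

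The thioredoxins themselves differed in sign. Txn1, the cytosolic thioredoxin and the most abundant gene of the system at 238 ± 9.54 RPKM (SD, n = 2) in shScramble, read 257 and 243 CPM there and 226 and 196 CPM in shYthdf2. Both knockdown libraries lay below both controls, with a log2 fold change of -0.24 (edgeR, SE 0.11, adjusted p = 0.25) that became -0.35 (edgeR adjusted p = 0.032) with the length trend taken out and -0.14 without shYthdf2 replicate 2. Txn2, the mitochondrial thioredoxin, read 63.9 and 63.5 CPM in shScramble and 84.6 and 75.6 CPM in shYthdf2, a log2 fold change of 0.33 (edgeR, SE 0.11, adjusted p = 0.13). Txnrd1, the selenium-containing reductase that recycles TXN1, read 471 and 493 CPM in shScramble and 460.2 and 432 CPM in shYthdf2, with a log2 fold change of -0.11 (edgeR, SE 0.10, adjusted p = 0.58). The ratio of Txnip to Txn1 per length was 0.262 and 0.328 in shScramble and 0.158 and 0.187 in shYthdf2, so the transcript of the inhibitor was also fewer relative to that of its target.

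Among the 6 peroxiredoxins, which take their electrons from thioredoxin or, in the case of Prdx6, from glutathione, only Prdx2 passed the test. Prdx2 (chr8:84969622-84974811, plus strand) had 3598 and 3307 reads in shScramble and 5342 and 5051 in shYthdf2, or 99.9 and 105 CPM against 156 and 141 CPM. The mean rose from 102 ± 3.58 to 149 ± 10.7 CPM (SD, n = 2), and the log2 fold change was 0.54 (edgeR, SE 0.11, adjusted p = 0.029), and without shScramble replicate 1 it missed the threshold (edgeR adjusted p = 0.062, log2 fold change 0.50). Prdx1, its close relative in the cytosol and the most abundant peroxiredoxin at 361 ± 5.07 RPKM (SD, n = 2) in shScramble, read 507 and 517 CPM there and 562 and 506 CPM in shYthdf2. The log2 fold change of Prdx1 was 0.06 (SE 0.10) with overlapping groups, and the ratio of Prdx2 to Prdx1 per length went from 0.180 and 0.185 to 0.254 and 0.255. The mitochondrial Prdx3, the endoplasmic reticulum enzyme Prdx4, Prdx5 and Prdx6 had log2 fold changes from -0.13 to 0.07, none of which passed. Of Prdx5, 32.2% of the exon bases lie over Trmt112 on the opposite strand, so its level is the least certain of the 6.

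The enzymes that handle superoxide and hydrogen peroxide without thiol carriers did not pass. Sod1, the cytosolic copper and zinc superoxide dismutase, was the most abundant of all 39 genes per length, with 713 ± 88.6 RPKM in shScramble and 719 ± 131 RPKM in shYthdf2 (SD, n = 2), and its log2 fold change was 0.01 (SE 0.14). Sod2, the manganese enzyme of mitochondria, read 192 and 171 CPM in shScramble and 234 and 205 CPM in shYthdf2, a log2 fold change of 0.27 (edgeR, SE 0.11, adjusted p = 0.21) that was 0.17 without shYthdf2 replicate 1. Catalase, encoded by Cat and located in peroxisomes, read 92.5 and 108 CPM in shScramble and 73.1 and 84.0 CPM in shYthdf2, with a log2 fold change of -0.35 (edgeR, SE 0.12, adjusted p = 0.15). For Sod2 and Cat the groups did not overlap, in opposite directions, where 26.2% of all genes tested were higher and 25.5% lower in this way.

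The metallothioneins changed most. Mt1 (chr8:94178883-94180327, plus strand) had 263 and 227 reads in shScramble and 956 and 593 in shYthdf2, or 7.30 and 7.21 CPM against 28.0 and 16.6 CPM. The controls were nearly equal and both knockdown libraries stood well above them, and the log2 fold change was 1.62 (edgeR, SE 0.25, adjusted p = 0.011). Mt2 (chr8:94172618-94173567, plus strand), the neighbouring gene, had 657 and 314 reads in shScramble and 2214 and 1258 in shYthdf2, or 18.2 and 9.97 CPM against 64.8 and 35.2 CPM. Here the libraries of replicate 1 were the higher ones in both groups, without overlap between the groups, and the log2 fold change was 1.82 (edgeR, SE 0.31, adjusted p = 0.017). Both genes passed in each of the 14 other settings, with log2 fold changes from 1.19 to 1.95 for Mt1 and from 1.31 to 2.33 for Mt2. Summed per length the pair went from 40.4 and 25.4 RPKM to 146 and 80.5 RPKM. Of the 150-base windows of Mt2 transcripts, 13.9% are shared with the gene model Gm45774, so a small part of its reads is uncertain.

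The MRE core was searched as TGCACNC or TGCGCNC on both strands of the same promoter windows. It was present in 11 of the 44 windows of the redox genes, or 25%, and in 25.7% of all promoter windows. Mt2 had 4 matches, Mt1 and Gclm had 3 each and G6pdx and Pgd had 2 each, where 7.11% of all windows held 2 or more and 0.517% held 4 or more. Gclm had a log2 fold change of -0.17, and Gclm, G6pdx and Pgd did not pass the test. The counts include matches after the start. Those before it are printed for Mt1 and Mt2, since these 2 genes rose most, with the core in capitals. For Mt1 the promoter window (chr8:94178839-94179138) was set on a start inside the gene span given above. Its printed match lies inside that span too. The last line shows an ARE core in the Mt2 window.
Mt1, chr8:94179055-94179084 (+), 23 bases before the start: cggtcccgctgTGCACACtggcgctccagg
Mt2, chr8:94172384-94172413 (+), 223 bases before the start: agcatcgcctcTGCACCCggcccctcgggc
Mt2, chr8:94172479-94172508 (+), 128 bases before the start: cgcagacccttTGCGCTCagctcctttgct
Mt2, chr8:94172557-94172586 (+), 50 bases before the start, opposite strand: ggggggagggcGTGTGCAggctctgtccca
Mt2, chr8:94172529-94172558 (+), 79 bases before the start, ARE core: aaagggggtgTGACTCAGCgcggggggtgg
Other members with the MRE core were G6pdx, Gclm, Gpx7, Gstm1, Pgd, Prdx4, Srxn1 and Txnip. None of these rose at the adjusted threshold, and Txnip fell. Here too a match describes letters and is not evidence of binding, and a part of these elements in the changes was not tested.

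The subunits of ferritin, the iron storage shell, had opposite signs. Fth1, the heavy subunit that oxidises iron, read 339.5 and 335 CPM in shScramble and 460.3 and 365 CPM in shYthdf2, a log2 fold change of 0.29 (edgeR, SE 0.12, adjusted p = 0.21) that was 0.11 without shYthdf2 replicate 1. Ftl1, the light subunit, read 218 and 229 CPM in shScramble and 222 and 194 CPM in shYthdf2, with a log2 fold change of -0.10 (SE 0.11). Per length, Ftl1 at 231 ± 8.24 RPKM and Fth1 at 223 ± 2.18 RPKM (SD, n = 2) stood within that spread of each other in shScramble. The ratio of Fth1 to Ftl1 per length was 1.00 and 0.938 in shScramble and 1.33 and 1.21 in shYthdf2. Ftl1 shares 36.3% of its 150-base windows with Ftl1-ps1 and other gene models, so its level, and with it the ratio, is uncertain.

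None of the genes of the pentose phosphate pathway and NADPH supply passed the test. G6pdx, the first and rate-limiting enzyme, which makes NADPH, read 46.6 and 46.7 CPM in shScramble and 60.7 and 60.3 CPM in shYthdf2. Its replicates were nearly equal within each group. The log2 fold change of G6pdx was 0.37 (edgeR, SE 0.11, adjusted p = 0.094). It ranged from 0.37 to 0.38 when single libraries were left out and was 0.31 with the length trend taken out. Pgd, the second NADPH-producing step, read 170.1 and 164 CPM in shScramble and 214 and 185 CPM in shYthdf2, a log2 fold change of 0.26 (edgeR, SE 0.11, adjusted p = 0.22). Without shYthdf2 replicate 1 this was 0.15, and without shYthdf2 replicate 2 it was 0.36 and passed (edgeR adjusted p = 0.029). Of the non-oxidative enzymes, Taldo1, the most abundant of the group at 160.3 ± 4.54 RPKM (SD, n = 2) in shScramble, read 200.4 and 209 CPM there and 251 and 219 CPM in shYthdf2. The log2 fold change of Taldo1 was 0.20 (edgeR, SE 0.11, adjusted p = 0.34) and 0.10 without shYthdf2 replicate 1, and that of Tkt was -0.06 (edgeR, SE 0.10, adjusted p = 0.81). The ratio of G6pdx to Tkt per length was 0.160 and 0.153 in shScramble and 0.208 and 0.213 in shYthdf2. Me1, the cytosolic malic enzyme that makes NADPH outside this pathway, read 75.9 and 76.9 CPM in shScramble and 65.2 and 54.2 CPM in shYthdf2, a log2 fold change of -0.36 (edgeR, SE 0.12, adjusted p = 0.14). It passed as lower without shYthdf2 replicate 1 (edgeR adjusted p = 0.020, log2 fold change -0.50) and was at -0.23 without shYthdf2 replicate 2 (edgeR adjusted p = 0.33).

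The glutathione transferases, which join glutathione to electrophiles, did not pass. Gsta4, which is known for clearing the lipid peroxidation product 4-hydroxynonenal and was the most abundant of the 4 at 307 ± 22.3 RPKM (SD, n = 2) in shScramble, read 279 and 309.5 CPM there and 365 and 335 CPM in shYthdf2. The groups of Gsta4 did not overlap, with a log2 fold change of 0.25 (edgeR, SE 0.11, adjusted p = 0.22). Gstm1 read 10.5 and 14.3 CPM in shScramble and 15.6 and 13.7 CPM in shYthdf2, with a log2 fold change of 0.25 (SE 0.20) that was 0.04 without shScramble replicate 1. Gstp1 had a log2 fold change of 0.02 (SE 0.12), and the groups of both genes overlapped. Gstp1 shares 17.6% of its 150-base windows with Gstp2 and Gstp-ps. The microsomal enzyme Mgst1 was at the edge of detection with 8 to 15 reads per library, so that a log2 fold change between -0.90 and 2.14 lies within its 95% interval.

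**Figure D4:**
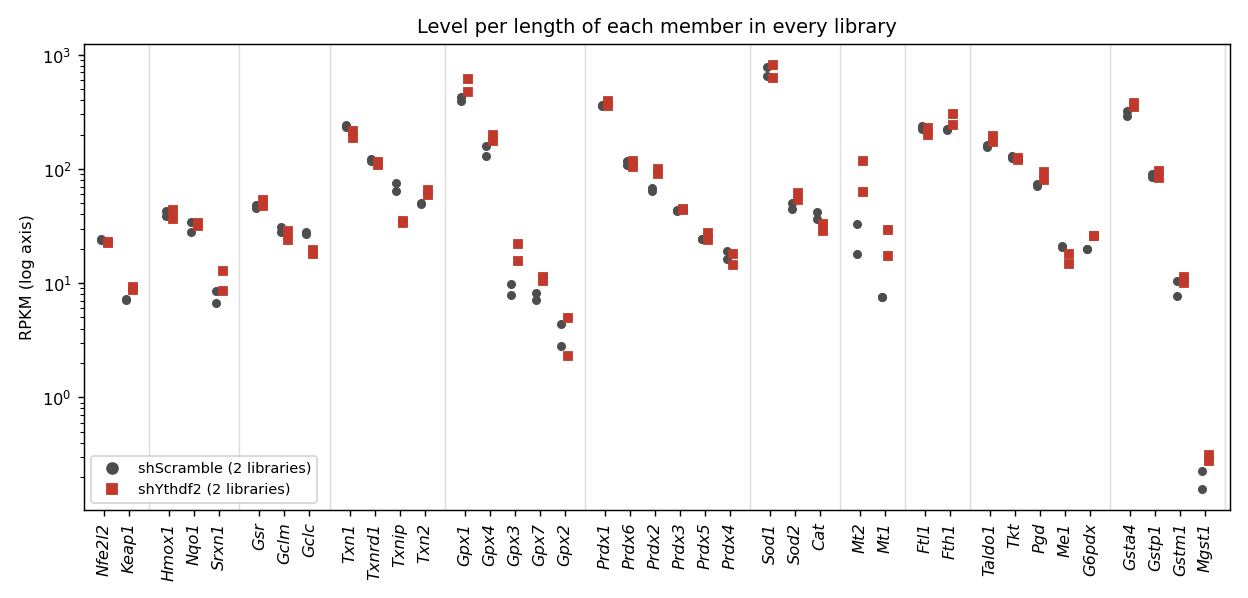
Level per exon length in RPKM (vertical axis, log scale) of the 39 genes in each library, grouped by role in the order used for the fold changes and sorted by level within a role, with circles for shScramble and squares for shYthdf2. Levels run from 0.19 RPKM for Mgst1 to 713 RPKM for Sod1 in shScramble, and the circles and squares part most for Mt1, Mt2, Gpx3 and Txnip.

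The levels of the 39 genes spanned a wide range per length, with cytosolic antioxidant enzymes at the top. In shScramble, Sod1 was followed by Gpx1 at 409 ± 24.2 RPKM, Prdx1 at 361 ± 5.07 RPKM and Gsta4 at 307 ± 22.3 RPKM (SD, n = 2 for each). The genes that passed the test came from lower in this order. The controls had 69.9 ± 8.24 RPKM of Txnip, 65.9 ± 2.30 RPKM of Prdx2 and 27.3 ± 0.78 RPKM of Gclc, and 25.4 ± 10.5 RPKM of Mt2, 8.86 ± 1.46 RPKM of Gpx3 and 7.55 ± 0.07 RPKM of Mt1 (SD, n = 2 for each). In shYthdf2, Mt2 reached 89.9 ± 37.7 RPKM (SD, n = 2), and its spread was wide enough to overlap that of Prdx2 at 95.7 ± 6.88 RPKM.

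Other genes of the same pathways were examined in a wider list of 96 genes, 89 of which passed the filter on low counts. Of these, 5 rose and 1 fell at the adjusted threshold, where 2.43% and 1.49% of all genes did. At an unadjusted p under 0.05, 14 were higher and 10 lower, where 11% and 9.8% of all genes were, and the median log2 fold change was 0.07. Ggct, the cyclotransferase that breaks down gamma-glutamyl dipeptides from glutathione, rose from 7.27 and 7.78 CPM to 14.5 and 14.1 CPM, a log2 fold change of 0.92 (edgeR, SE 0.19, adjusted p = 0.031). Msrb2, the mitochondrial methionine sulfoxide reductase, rose from 8.55 and 6.63 CPM to 22.1 and 15.2 CPM, a log2 fold change of 1.29 (edgeR, SE 0.23, adjusted p = 0.019). Ephx1, the microsomal epoxide hydrolase, had a log2 fold change of 1.27 (edgeR, SE 0.23, adjusted p = 0.021), with 6.44 and 7.24 CPM in shScramble and 19.7 and 13.2 CPM in shYthdf2. In each of these 3 genes both knockdown libraries lay above both controls, as they did for 26.2% of all genes tested.

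Sesn2, a stress-induced sestrin, rose from 97.6 and 72.2 CPM to 158 and 129.7 CPM, a log2 fold change of 0.76 (edgeR, SE 0.16, adjusted p = 0.031). Akr1a1, an aldehyde reductase that uses NADPH, rose from 212.1 and 212 CPM to 287 and 283 CPM, with a log2 fold change of 0.42 (edgeR, SE 0.10, adjusted p = 0.045), and missed the threshold in 4 of 14 other settings, among them those without either shScramble library (edgeR adjusted p = 0.15 and 0.19). Nadk2, the mitochondrial NAD kinase, fell from 98.7 and 102 CPM to 73.3 and 73.0 CPM, with a log2 fold change of -0.46 (edgeR, SE 0.10, adjusted p = 0.043), and missed it without shScramble replicate 1 (edgeR adjusted p = 0.069) and without shScramble replicate 2 (edgeR adjusted p = 0.16). The changes in Akr1a1 and Nadk2 were thus the least secure of the 6.

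Next to the metallothioneins, the zinc exporter gene Slc30a1, another known target of MTF1, read 33.1 and 21.8 CPM in shScramble and 48.0 and 36.5 CPM in shYthdf2, with a log2 fold change of 0.62 (edgeR, SE 0.20, adjusted p = 0.12). Mtf1 itself had a log2 fold change of 0.13 (edgeR, SE 0.13, adjusted p = 0.63). Of the 5 metal response genes tested, 2 were higher at an unadjusted p under 0.05 in edgeR, where 11% of all genes were, and 0 passed the adjusted threshold. Next to the ferritins, the median over the 9 iron and haem genes tested was -0.28 on the log2 scale, and 4 of them were lower at an unadjusted p under 0.05, where 9.8% of all genes were, and none at the adjusted one. The 4 were Tfrc, the transferrin receptor (log2 fold change -0.35, edgeR adjusted p = 0.14), the iron importer Slc11a2 (-0.45, edgeR adjusted p = 0.066), the iron exporter Slc40a1 (-1.52, edgeR adjusted p = 0.073) and the iron regulatory protein gene Ireb2 (-0.23, edgeR adjusted p = 0.23). These 4 were named after their values were seen. Slc30a1, Mtf1 and, below, Slc7a11 are also named without having passed the adjusted threshold. For glutathione supply, the cystine transporter gene Slc7a11 had a log2 fold change of 0.58 (edgeR, SE 0.27, adjusted p = 0.27).

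**Figure D5:**
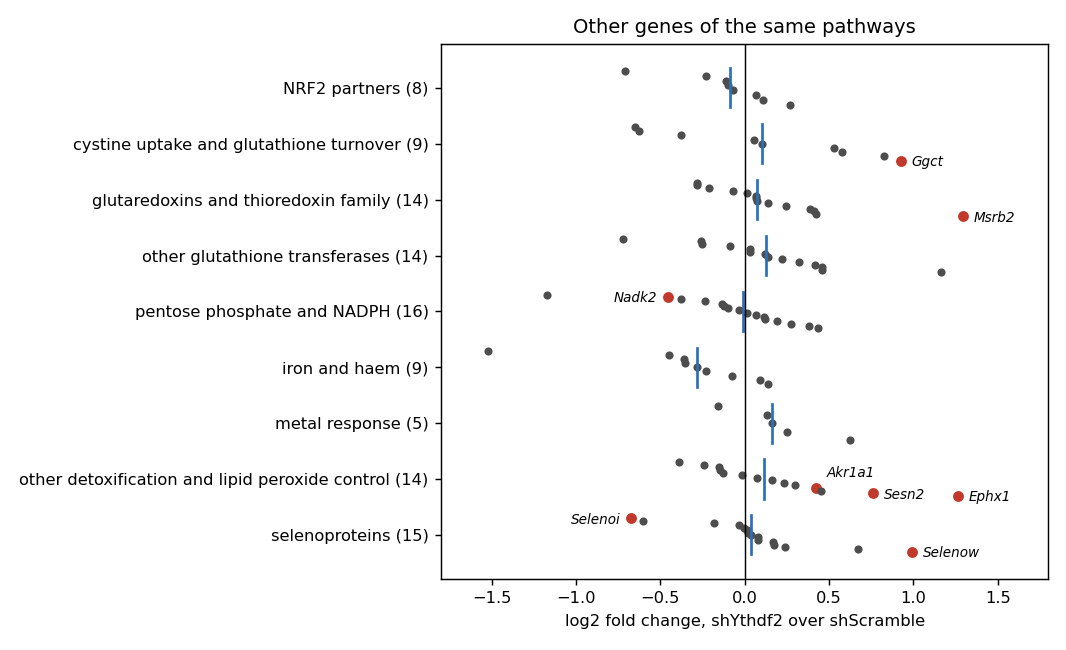
Log2 fold change in shYthdf2 over shScramble (horizontal axis) of 89 further redox genes in 8 groups and of 15 genes of a selenoprotein list, with the number of genes tested in parentheses. Red, labelled points passed an adjusted p under 0.05 and blue lines mark group medians, which lie between -0.28 for iron and haem genes and 0.16 for the metal response.

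A list of 17 genes outside the 39 was examined because the glutathione peroxidases and Txnrd1 depend on selenium. It held selenoprotein genes together with Eefsec and Secisbp2, which encode factors of selenocysteine insertion. The selenoprotein genes Msrb1, Txnrd2 and Txnrd3 were counted in the wider list instead. Of the 17 genes 15 passed the filter, with a median log2 fold change of 0.04. At the adjusted threshold 1 was higher and 1 lower, where 2.43% and 1.49% of all genes were. At an unadjusted p under 0.05 in edgeR, 2 were higher and 1 lower, where 11% and 9.8% of all genes were. Selenow, a small thioredoxin-like selenoprotein, rose from 33.9 and 32.6 CPM to 68.7 and 63.5 CPM, a log2 fold change of 0.99 (edgeR, SE 0.12, adjusted p = 0.0046). Selenoi, the ethanolamine phosphotransferase, fell from 62.5 and 56.2 CPM to 36.9 and 37.5 CPM, a log2 fold change of -0.67 (edgeR, SE 0.12, adjusted p = 0.019). Both passed in each of the 14 other settings, in opposite directions.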

How the data were processed

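RNA was sequenced from E14 mouse ESCs in 2 shScramble and 2 shYthdf2 libraries, poly(A)-selected, stranded by the dUTP method and read from both ends. The authors deposited raw read counts per gene, made with featureCounts version 2.0.3 over RefSeq exons of mm10, per the file headers. The submitters' processing notes also name fastp version 0.19.4, HISAT2 version 2.2.1 and DESeq2 version 1.40.2. Counts are of reads and not of pairs (61.5% to 63.9% of low counts were even), no strand option was set, and reads over several genes or positions were left out by default, so overlapping and near-identical genes are uncertain. The deposited length is that of a gene's exons, and for genes also listed on an extra contig the length on the chromosome was used. Library totals ran from 31113006 to 36422510 reads. A count of 0 allows up to 3 reads, or 0.083 to 0.095 CPM, for counting error only. There were 0 other columns of per-sample values.

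Groups and replicate numbers came from the titles, and the study's methods describe the replicates as biological. edgeR version 4.0.16 (R version 4.3.3) was used with TMM scaling, filterByExpr (minimum count 10, minimum total 15), the two-sided quasi-likelihood F test and no covariate, which left 18341 genes, all 39 redox genes among them. Its coefficient of biological variation was 15.8%. With 2 libraries a group, the smallest two-sided p of an exact permutation test is 0.333, and only p-values of the model are given. DESeq2 version 1.42.0 served for the study's criteria and, with limma-voom (limma version 3.58.1), as an alternative. Genes without an adjusted p in DESeq2 were not counted as calls.

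RPKM values were computed from TMM-scaled counts. Overlaps of exons were taken from the count table, and shared 150-base windows from GENCODE M21 transcripts. Scripts were tested on simulated counts. Alternatives were other scalings, filters and tools, halved counts, the replicate number as a block and each library left out. Removal of a lowess trend on exon length was added after the data were seen. The 39 genes, the wider lists and the rule for named genes (members past an adjusted or unadjusted p of 0.05, the most abundant of each role and, of the wider lists, those past the adjusted threshold) were chosen with earlier results of these data known.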

Additional observations from a re-analysis of the deposited data

How the results depend on the processing

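Txnip, Mt1, Mt2 and Gpx3 passed under all 14 other settings, and Gclc and Prdx2 under 13 of 14, both missing without shScramble replicate 1. The count of 4 higher and 2 lower redox genes became 12 and 4 with the replicate number as a block, which added Fth1, G6pdx, Gpx1, Gpx4, Gpx7, Sod2, Srxn1 and Txn2 as higher and Cat and Me1 as lower. Deviations from the group means of same-numbered libraries correlated at 0.226 across all genes and 0.758 across the 39, but 2 pairs are too few to settle a pairing and no label names a shared batch, so the fit without the block was kept. The block also raised the calls over all genes from 445 and 273 to 1851 and 1674. With single libraries left out the counts ranged from 3 to 11 higher and from 1 to 3 lower. The 11, without shYthdf2 replicate 2, added Txn2, Gpx1, Gpx4, Sod2, Fth1, Pgd and Gsta4 (and Cat as lower), while all genes came to 1175 higher and 1113 lower there. Under the study's criteria the 3 higher and 1 lower genes ranged from 1 to 3 and from 0 to 1, the lowest without shScramble replicate 2 or shYthdf2 replicate 1. The median log2 fold change of 0.07 was -0.034 with the length trend removed and 0.038 to 0.19 with single libraries left out. In the wider list, 5 higher and 1 lower genes became 9 and 5 without the filter, 9 and 2 in DESeq2, 10 and 9 with the replicate block, 5 and 2 with the length trend removed, and 5 to 11 and 0 to 4 with single libraries left out. Over all genes, no filter gave 1095 and 843 calls, DESeq2 800 and 602, and the removed length trend 604 and 420. Signs of 10 members near 0 turned. With the length trend removed, Nqo1 was -0.036, Gpx2 -0.12, Prdx1 -0.041, Prdx3 -0.062, Prdx5 -0.034, Sod1 -0.11 and Gstp1 -0.10. With upper quartile scaling Gpx2 was -0.0083, Sod1 -0.0053 and Gstp1 -0.0014, and Gpx2 was -0.082 in limma-voom and -0.040 with the block. With single libraries left out, Nqo1 ranged from -0.075 to 0.20, Hmox1 from -0.17 to 0.11, Gpx2 from -0.66 to 0.47, Prdx1 from -0.019 to 0.13, Prdx4 from -0.29 to 0.019, Prdx5 from -0.037 to 0.17, Prdx6 from -0.11 to 0.052, Sod1 from -0.19 to 0.19 and Gstp1 from -0.084 to 0.11. The causes of these moves were not tested.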
